A study of Mus musculus with 23 samples.

Results

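The ribosome biogenesis genes examined here were 38 genes whose products transcribe ribosomal RNA, guide its modification or assemble it into ribosomal subunits. They were taken as a named list of gene symbols and found on the arrays by matching the RefSeq accession of each probe to its symbol, keeping for each gene the probe with the highest mean signal. All 38 had a probe, among 20145 genes with a probe, and all 38 passed the filter on dim probes, which left 15202 genes for testing. Expression was measured on one-colour Agilent arrays in cells derived from a mouse embryonic stem (ES) cell line in which doxycycline (Dox) switches on human RUNX1/ETO, the fusion protein of a form of acute myeloid leukaemia. Cells were taken at 4 stages of blood formation in culture, each without and with induction, and the question put to each stage was what the fusion protein did to gene expression. The haemogenic endothelium (HE) is an adherent endothelial cell that gives rise to blood and was sorted as Tie2+ Kit+ CD41-. HE2 cells are in transition from endothelium to blood and have gained CD41. Progenitors are CD41+ blood cells that have left the endothelial layer, and myeloid progenitors are progenitors cultured further.

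The HE and HE2 groups and the myeloid progenitor groups had 3 arrays each, and the progenitor groups had 2 each. All were labelled biological replicates, and P values measure the spread between them. An additional array of uninduced progenitors, labelled a technical replicate, was normalised with the rest and kept out of the tests. Induced HE, HE2 and progenitors received 0.1 µg per ml Dox on day 1 of blast culture and were sorted on day 2. Induced myeloid progenitors received the same dose on day 2 for 12 h and were harvested on day 3. Every group shared the same inducible line, labelled C57BL/6 and wild type for Runx1, so the uninduced cells also carried the transgene. The results rest on this 1 engineered line, and no group that received Dox without the transgene was analysed here.

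Ribosomes are built in the nucleolus. RNA polymerase I copies the ribosomal DNA into a long precursor, small nucleolar ribonucleoproteins (snoRNPs) direct the methylation and pseudouridylation of that RNA and part of its cleavage, and a long series of assembly factors carry the particles through to mature small and large subunits. The pathway is among the largest consumers of energy in a growing cell. It is known for its dependence on MYC, which binds the E-box CACGTG together with MAX, while MXD1 competes for MAX and represses the same kind of site, and RUNX1 binds the motif TGTGGT.

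The promoter sequences are shown because these motifs are the ones through which MYC, MXD1 and RUNX proteins bind DNA. RefSeq promoter windows of the mouse build GRCm38.p6, reaching 250 bases before to 50 bases after the start site, were matched by symbol for 34 of the 38 genes. None was listed for Npm1, Fbl, Rrp12 and Bop1. The E-box CACGTG, which reads the same on both strands, stood in the window of 9 of the 34 genes (26.5%), against 8.09% of 27025 genes of the promoter table and 16.8% of the other ribosome biogenesis genes that had a window. The RUNX motif TGTGGT, sought on both strands, stood in 3 of the 34 (8.82%), against 18.9% of all genes. No E-box overlapped a RUNX motif. Stretches of 30 bases around the motifs, with the motif in capitals and the strand that of the gene, read as follows for the E-boxes of the 9 genes (for Rrn3 the one nearer the start site) and the RUNX motifs of Nop56 (the one nearer the start site), Bysl and Pes1.
Rrn3, chr16:13780639-13780668, plus strand, E-box: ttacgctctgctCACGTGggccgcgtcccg
Mybbp1a, chr11:72441347-72441376, plus strand, E-box: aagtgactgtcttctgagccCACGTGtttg
Utp20, chr10:88826765-88826794, minus strand, E-box: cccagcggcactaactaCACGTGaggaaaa
Wdr43, chr17:71616220-71616249, plus strand, E-box: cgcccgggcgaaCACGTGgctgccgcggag
Tsr1, chr11:74898092-74898121, plus strand, E-box: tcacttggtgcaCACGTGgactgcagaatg
Imp4, chr1:34439696-34439725, plus strand, E-box: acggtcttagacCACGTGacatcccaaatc
Pes1, chr11:3963965-3963994, plus strand, E-box: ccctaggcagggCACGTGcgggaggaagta
Nop2, chr6:125131811-125131840, plus strand, E-box: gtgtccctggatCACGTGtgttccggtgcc
Nle1, chr11:82908355-82908384, minus strand, E-box: tcggttctcctcCACGTGgggacgcaggat
Nop56, chr2:130274388-130274417, plus strand, RUNX motif: aaccggagaaggTGTGGTctccgcagtctg
Bysl, chr17:47611700-47611729, minus strand, RUNX motif on the opposite strand: atatgctccgtcACCACAgaagcccttcaa
Pes1, chr11:3963826-3963855, plus strand, RUNX motif on the opposite strand: actgaaagaactACCACAattgttgagctt
A match to these letters is a description of the sequence and was not tested as a binding site.

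Between 48.8 and 78.4% of the spots on an array were well above background, and no spot was saturated. On the probe for mouse Runx1t1, the gene of the ETO part, the signal rose with Dox by 1.24 in HE, 2.08 in HE2, 3.96 in progenitors and 2.06 at the myeloid progenitor stage on the log2 scale (limma, adjusted P = 0.0155, 0.000296, 1.2e-05 and 0.000308), though whether that probe reads the human transgene is not known. Itga2b, which encodes CD41, averaged 10.70 (log2 intensity) in uninduced HE, sorted as CD41-, and 7.49 in induced HE, and uninduced myeloid progenitors had a high mean level of the 5 erythroid markers (15.41, against 9.26 to 11.86 in the other uninduced stages). Among 8 endothelial markers, 0, 4, 4 and 7 rose with Dox in HE, HE2, progenitors and myeloid progenitors and none fell (adjusted P at most 0.05). The mean level of that list on single arrays went from 9.36 to 10.11 without Dox to 11.88 to 12.26 with Dox in myeloid progenitors, and its mean from 11.71 to 12.94 in HE2 and from 9.82 to 11.42 in progenitors. Other marker lists moved too. Of 3 mast cell and basophil markers, 2, 2, 2 and 3 rose in the 4 stages, and their mean went from 6.57 to 8.81 in HE and from 7.00 to 10.25 in myeloid progenitors. Of 5 cardiac and smooth muscle markers, 2 fell and 1 rose in HE and 3 fell in HE2 (mean of 11.20 to 9.92). In progenitors 1 of them rose, and in myeloid progenitors 1 did. Of 4 fibroblast markers, 1 fell and 1 rose in HE, 2 fell in HE2 (9.39 to 8.06) and 2 rose in myeloid progenitors (6.53 to 7.63). Of 5 erythroid markers, 1, 2 and 2 rose in HE, HE2 and progenitors and 1 fell in myeloid progenitors. The 2 epithelial markers tested went from 12.47 to 9.28 in HE2. Of 4 megakaryocyte markers, 2 fell in HE2 and 3 in myeloid progenitors (12.82 to 11.58), and 1 rose in progenitors. Of 8 myeloid markers, 1, 3, 2 and 2 fell in the 4 stages. The part of these lists in the results below was not tested. A set of 4 arrays, 1 in each HE and HE2 group, stood apart from the other arrays of their groups along the component that held 35.5% of the variance within groups, so results in HE and HE2 are given also without them. Slides 1 and 2 held the HE and HE2 arrays, slide 3 all the myeloid progenitor arrays and 1 of the 2 induced progenitor arrays. In both HE and HE2, slide 1 held 2 uninduced arrays and 1 induced array, and slide 2 held 1 uninduced array and 2 induced arrays, so slide and Dox were not balanced.

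Each value below is a log2 intensity after normalisation, and each change is a difference of group means on that scale, so that a change of -1 is a fall to a level 2-fold lower. With Dox, 36 of the 38 genes were lower in HE, where 50.6% of all genes were lower, 37 in HE2 (52.1% of all genes), 28 in progenitors (53.9%) and 37 at the myeloid progenitor stage (52.1%). The median change was -0.43 in HE, -0.54 in HE2, -0.23 in progenitors and -0.57 at the myeloid progenitor stage, whereas the median over all genes lay between -0.04 and -0.01. Expressed as a fold, the typical member was 1.35-fold lower in HE, 1.46-fold lower in HE2, 1.18-fold lower in progenitors and 1.48-fold lower in myeloid progenitors. In RNA from bulk samples, fewer cells of a type that expresses a gene and less of that RNA per cell cannot be told apart.

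**Figure D1:**
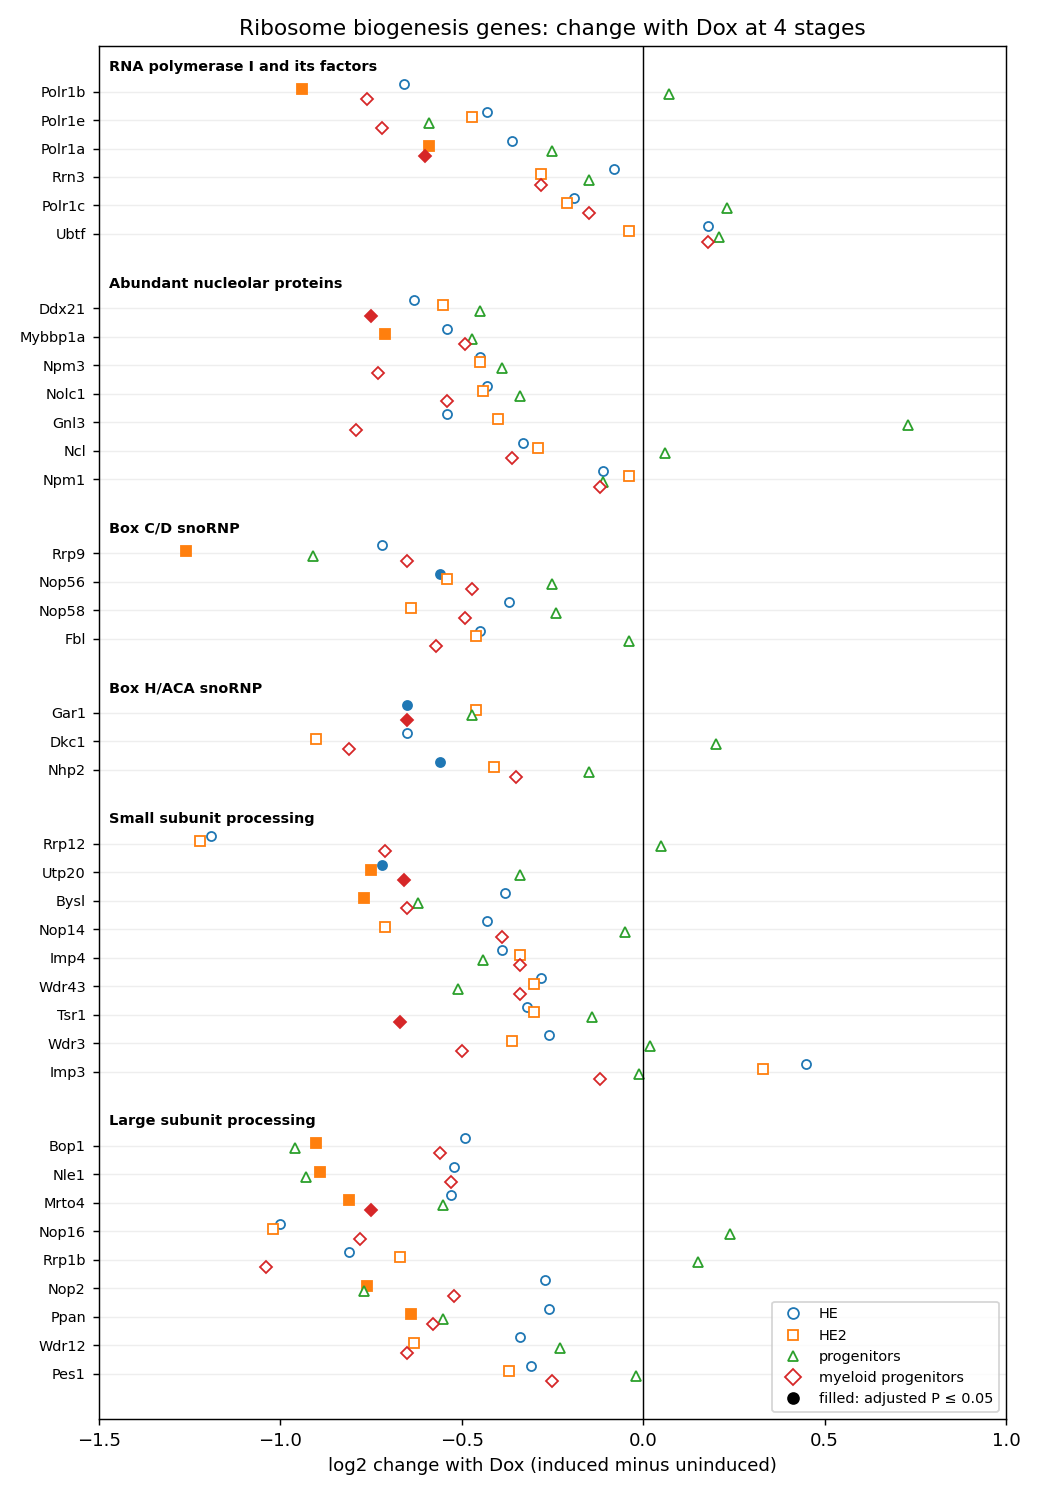
Log2 change with Dox (horizontal axis) of each of the 38 genes, grouped by role (rows), in the 4 stages (marker shapes), with filled markers where the adjusted P was 0.05 or less. Most points lie to the left of 0 in HE, HE2 and myeloid progenitors, with 36, 37 and 37 genes lower, while 10 genes lie to the right in progenitors.

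Few of these changes were large. Genes were called here by a rule of P up to 0.001 together with a difference of 2-fold or more. By this rule no member was called lower in HE (2.39% of all genes were), 1 was in HE2 (2.05%), and none was in progenitors (0.704%) or myeloid progenitors (1.18%). In limma's test with Benjamini-Hochberg adjustment over all 15202 genes and no limit on the fold, 4 members fell in HE (6.62% of all genes), 11 in HE2 (6.76%), none in progenitors (1.48%) and 6 at the myeloid progenitor stage (4.30%). None rose in any stage, where 9.03, 10.4, 4.05 and 9.49% of all genes did. At an unadjusted P under 0.05, 10, 20, 8 and 24 members were lower in HE, HE2, progenitors and myeloid progenitors (12.4, 13.2, 9.77 and 10.4% of all genes), and 1 was higher, in HE (14.4%). Complete separation of the arrays was common: every induced array read below every uninduced array for 9 members in HE (11.0% of all genes), 25 in HE2 (15.2%), 16 in progenitors (26.4%) and 31 at the myeloid progenitor stage (22.7%). Single arrays decided part of the count of members that fell. In HE it was 1, 0 and 8 without uninduced replicates 1, 2 and 3, and 2 without induced replicate 2 or 3. In HE2 it was 6, 6 and 7 without uninduced replicates 1, 2 and 3, and 5 without induced replicate 3. In progenitors it was 2 without induced replicate 1. In myeloid progenitors it was 2 without uninduced replicate 1 or induced replicate 2 or 3, and 3 without uninduced replicate 3 or induced replicate 1. The share of all genes that fell in each such fit is not given, so these counts show only how the calls depend on single arrays.

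Across stages, 27 of the 38 genes were lower with Dox in all 4 (21.4% of all genes were), and 36 were lower in HE, HE2 and myeloid progenitors. The share of all genes lower in HE, HE2 and myeloid progenitors together is not given, so the count of 36 has no background beside it. Arrays separated downwards in all 4 stages for 4 members (2.34% of all genes): Polr1a, Mybbp1a, Nop56 and Mrto4. For Nop56 this holds for its brighter probe, and its other probe had a change of 0.80 in progenitors. No 2 stages share arrays, but all come from 1 cell line, and same-numbered uninduced HE and HE2 samples deviated together, so the stages are not independent sets.

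Each array was summarised by the median, over the 38 genes, of the deviation from each gene's mean. This summary lay between -0.10 and 0.12 in uninduced HE and between -0.70 and -0.29 in induced HE. It lay between 0.34 and 0.40 in uninduced HE2 and between -0.37 and -0.03 in induced HE2. In myeloid progenitors it lay between 0.14 and 0.32 without and between -0.34 and -0.13 with Dox. The 2 uninduced progenitor arrays read 0.27 and 0.50 and the 2 induced ones 0.11 and 0.19, so no induced array overlapped the uninduced arrays of its stage in any of the 4 stages.

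**Figure D2:**
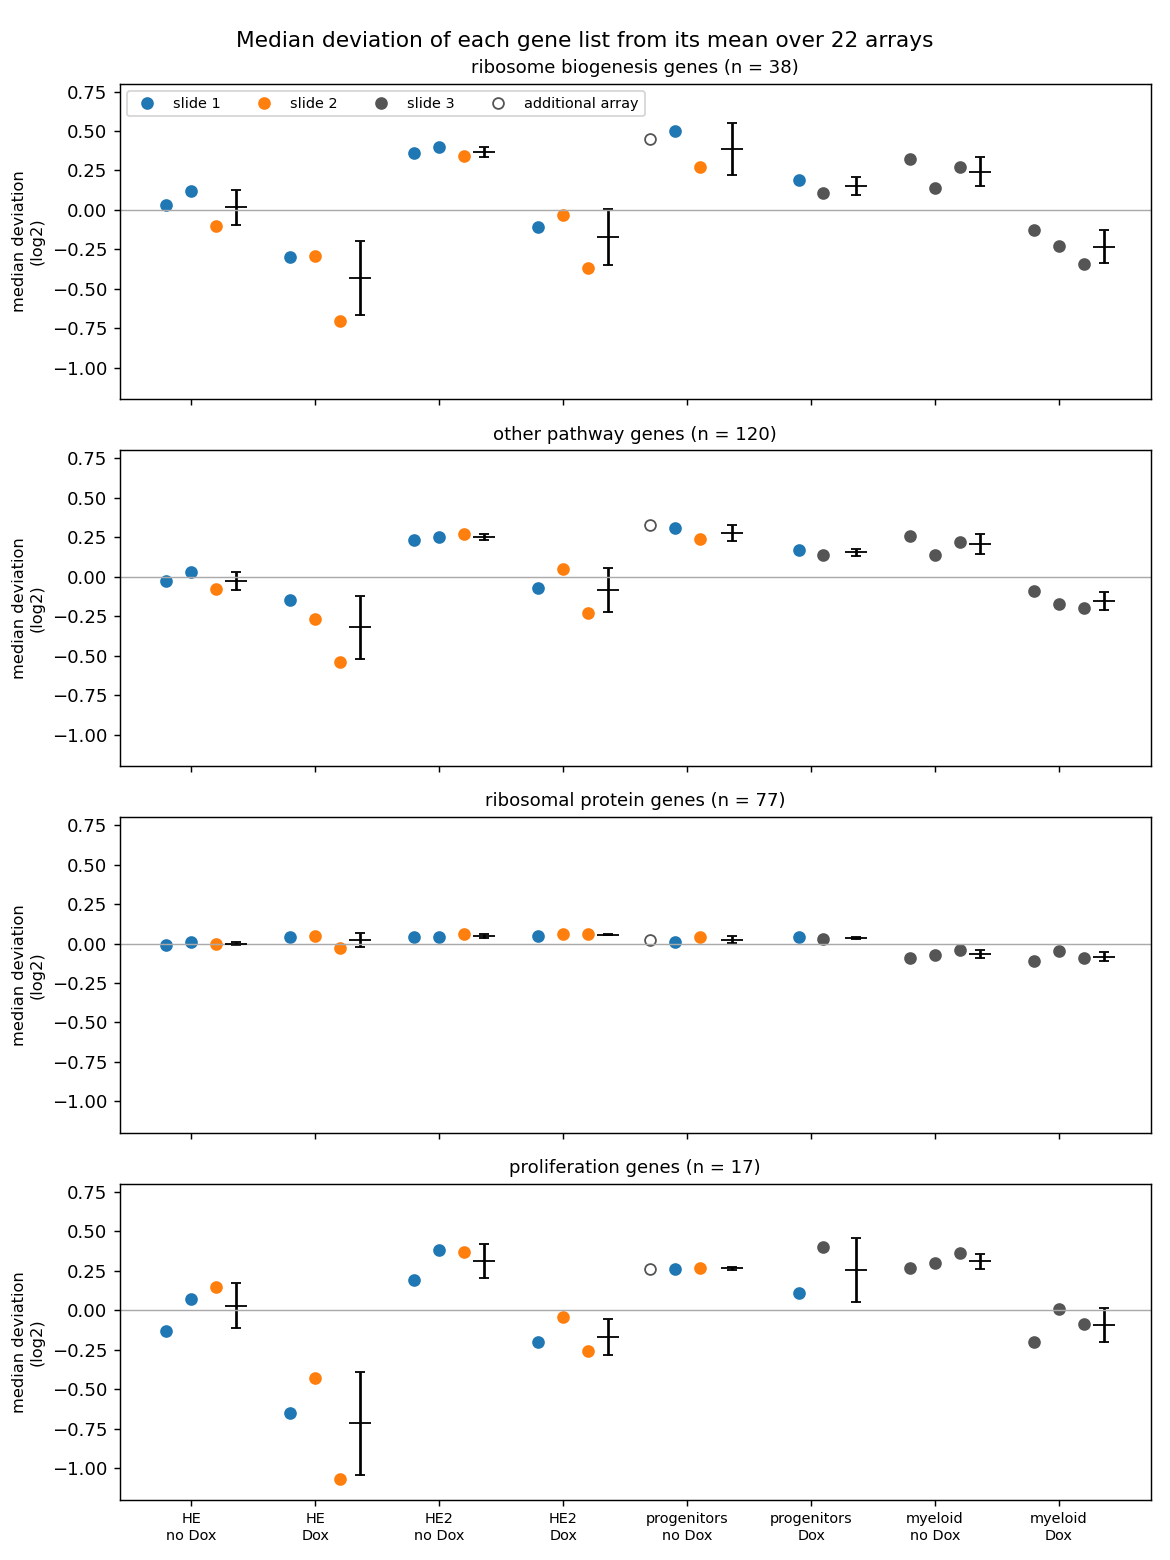
Median deviation of the genes of a list from their mean over the arrays (log2, vertical axis) for each array, by stage and induction, coloured by slide, in 1 panel each for the 38 genes, the 120 other ribosome biogenesis genes, the 77 ribosomal protein genes and the 17 proliferation genes, with the mean and SD of each group as bars that leave out the additional uninduced progenitor array (open point). For the 38 genes, induced arrays sit below the uninduced arrays of the same stage, from -0.70 to -0.29 against -0.10 to 0.12 in HE.

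RNA polymerase I and its factors formed a group of 6 genes. Its median change with Dox was -0.28 in HE, -0.38 in HE2, -0.04 in progenitors and -0.44 at the myeloid progenitor stage, and 0, 2, 0 and 1 of its members fell at an adjusted P of at most 0.05. Polr1a encodes the largest, catalytic subunit of the polymerase. It read 12.94, 13.24 and 13.09 in uninduced HE2 and 12.35, 12.44 and 12.69 in induced HE2, and in myeloid progenitors it went from 13.23, 13.11 and 13.14 to 12.67, 12.62 and 12.36. The groups did not overlap in either stage. Polr1a fell by 0.59 in HE2 (SE 0.143, adjusted P = 0.00728) and by 0.60 in myeloid progenitors (SE 0.143, adjusted P = 0.00737), a 1.51-fold and a 1.52-fold lower level. In HE, where the arrays also separated (12.81, 12.98 and 12.63 against 12.38, 12.53 and 12.42), the change was -0.36 with an adjusted P of 0.101, and in progenitors it was -0.25 (adjusted P = 0.447).

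Polr1b encodes the second-largest subunit, which forms the active site with Polr1a. In uninduced HE2 it read 11.56, 11.03 and 11.68, and in induced HE2 10.98, 10.85 and 9.63. The groups did not overlap, but induced replicate 3 lay more than 1 log2 unit below the other two. Polr1b fell by 0.94 (SE 0.314, adjusted P = 0.0472). Without that array, which is one of the 4 that stood apart, the change was -0.51 (adjusted P = 0.276), and without uninduced replicate 1 or 3 the adjusted P was 0.133 or 0.16. In myeloid progenitors the arrays went from 11.96, 11.57 and 11.77 to 11.00, 11.12 and 10.91, and in progenitors they overlapped, at 11.77 and 11.25 against 11.82 and 11.34.

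Among the remaining members of this group, Polr1e, a subunit of the polymerase that helps it start transcription, was lower by -0.43, -0.47, -0.59 and -0.72 in the 4 stages without passing the test (smallest adjusted P = 0.0558, in myeloid progenitors). Rrn3, the factor that makes the polymerase competent to start and the gene with the E-box printed first above, had changes of -0.28 to -0.08. Polr1c, a subunit shared with RNA polymerase III, had changes of -0.21 to 0.23. Ubtf, which binds and opens the ribosomal DNA, had 2 probes that disagreed. On the brighter one, which stood for the gene, the change with Dox was 0.18 in HE, -0.04 in HE2, 0.21 in progenitors and 0.18 at the myeloid progenitor stage, and on the dimmer one it was -0.60, -0.74, -0.71 and -0.62. The brighter probe followed the slide, as described with the stages, and within single slides its change in progenitors was -0.60 on slide 1 and -0.26 on slide 3.

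The abundant nucleolar proteins were 7 genes with medians of -0.45, -0.44, -0.34 and -0.54 in HE, HE2, progenitors and myeloid progenitors, and none fell in HE, 1 in HE2, none in progenitors and 1 at the myeloid progenitor stage. Mybbp1a, a MYB-binding protein of the nucleolus that takes part in precursor processing, read 15.66, 16.03 and 15.50 in uninduced HE2 and 14.85, 15.08 and 15.12 in induced HE2. It fell by 0.71 there (SE 0.191, adjusted P = 0.0143). In the other stages the arrays separated too, with changes of -0.54 in HE, -0.47 in progenitors and -0.49 at the myeloid progenitor stage that did not pass the test. Ddx21, an RNA helicase that acts in both transcription and processing of ribosomal RNA, read 12.79, 12.69 and 12.89 in uninduced and 11.97, 11.96 and 12.18 in induced myeloid progenitors. The groups lay apart, and Ddx21 fell by 0.75 (SE 0.246, adjusted P = 0.0498). Its adjusted P passed 0.05 under 12 of 20 other settings, among them every fit that left out 1 of the 6 arrays, with changes between -0.83 and -0.71.

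Nucleophosmin and nucleolin, the best known proteins of the nucleolus, did not pass the test in any stage. Npm1 read 17.39, 17.28 and 17.21 in uninduced and 17.19, 17.11 and 17.21 in induced myeloid progenitors, and its changes ran from -0.12 to -0.04 over the 4 stages. One of its spots was marked an outlier in induced HE2, so that group rested on 2 arrays. Ncl averaged 15.68 ± 0.745 (SD, n = 3) in uninduced and 15.35 ± 0.665 (n = 3) in induced HE, and 16.01 ± 0.635 and 15.72 ± 0.88 in HE2, where 1 array of each group was among those that stood apart. The groups of Ncl overlapped in all 4 stages. Gnl3, which encodes nucleostemin, had the highest value of the list in progenitors, 0.73, without passing the test.

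The box C/D snoRNPs, which carry out the methylation of ribosomal RNA, were represented by 4 genes with medians of -0.51, -0.59, -0.25 and -0.53 in HE, HE2, progenitors and myeloid progenitors. All 4 were lower with Dox in every stage, and 1 fell in HE and 1 in HE2. Rrp9 encodes a protein specific to the U3 particle, which guides the first cleavages of the precursor. It read 12.12, 11.68 and 11.96 in uninduced HE2 and 10.95, 10.91 and 10.12 in induced HE2. Every induced array lay well below every uninduced one. Rrp9 fell by 1.26 in HE2 (SE 0.247, adjusted P = 0.00154), 2.39-fold, and was the member called at the 2-fold rule. Its adjusted P stayed at or below 0.029 in 21 other settings, and without the 4 arrays that stood apart it fell by 1.11 (adjusted P = 0.0161). In progenitors Rrp9 read 12.52 and 12.18 without and 11.62 and 11.25 with Dox, a change of -0.91 that did not pass the test (adjusted P = 0.0907).

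Nop56 is a core protein of these particles and the member with 2 RUNX motifs in its promoter window. In uninduced HE it read 15.45, 15.57 and 15.16, and in induced HE 15.05, 14.94 and 14.51. The arrays separated by a narrow gap. Nop56 fell by 0.56 in HE (SE 0.183, adjusted P = 0.0438), and its adjusted P passed 0.05 in 9 of 21 other settings, including fits without uninduced replicate 1 or 2 or induced replicate 2 or 3. In HE2 the change was -0.54 (adjusted P = 0.0508). Fbl, the methyltransferase of the particle, averaged 13.85 ± 0.0758 (SD, n = 3) in uninduced and 13.28 ± 0.0887 (n = 3) in induced myeloid progenitors without overlap, and its change of -0.57 had an adjusted P of 0.108.

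The box H/ACA snoRNPs, which carry out pseudouridylation, were represented by Dkc1, Gar1 and Nhp2. Their medians were -0.65, -0.46, -0.15 and -0.65 in the 4 stages, and 2 of the 3 fell in HE and 1 in myeloid progenitors. Gar1, a core protein of the particle, read 14.66, 15.02 and 14.83 in uninduced and 14.34, 14.45 and 13.77 in induced HE. It fell by 0.65 in HE (SE 0.202, adjusted P = 0.0347), and it fell by 0.65 in myeloid progenitors as well (adjusted P = 0.0392), where the arrays went from 14.70, 14.35 and 14.56 to 13.93, 13.99 and 13.74. Both pairs of groups were free of overlap. The call in HE was lost without uninduced replicate 2 or 3 or induced replicate 3 (adjusted P = 0.125, 0.0717 and 0.184). In HE2 the induced array at 15.13 lay inside the uninduced range of 15.06 to 15.36.

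Nhp2, another core protein, fell by 0.56 in HE (SE 0.180, adjusted P = 0.0414). Dkc1 encodes dyskerin, the pseudouridine synthase itself, and was lower without overlap in 3 stages. It read 10.01, 10.12 and 10.12 in uninduced and 9.89, 9.66 and 8.74 in induced HE, 10.79, 10.76 and 10.89 against 10.51, 10.34 and 8.88 in HE2, and 11.10, 10.91 and 11.05 against 10.30, 10.16 and 10.18 in myeloid progenitors. The changes of -0.65, -0.90 and -0.81 did not pass the test (adjusted P = 0.199, 0.0608 and 0.107), with 1 low induced array in each of HE and HE2. In progenitors the arrays separated the other way, from 10.87 and 10.70 to 11.00 and 10.96.

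**Figure D3:**
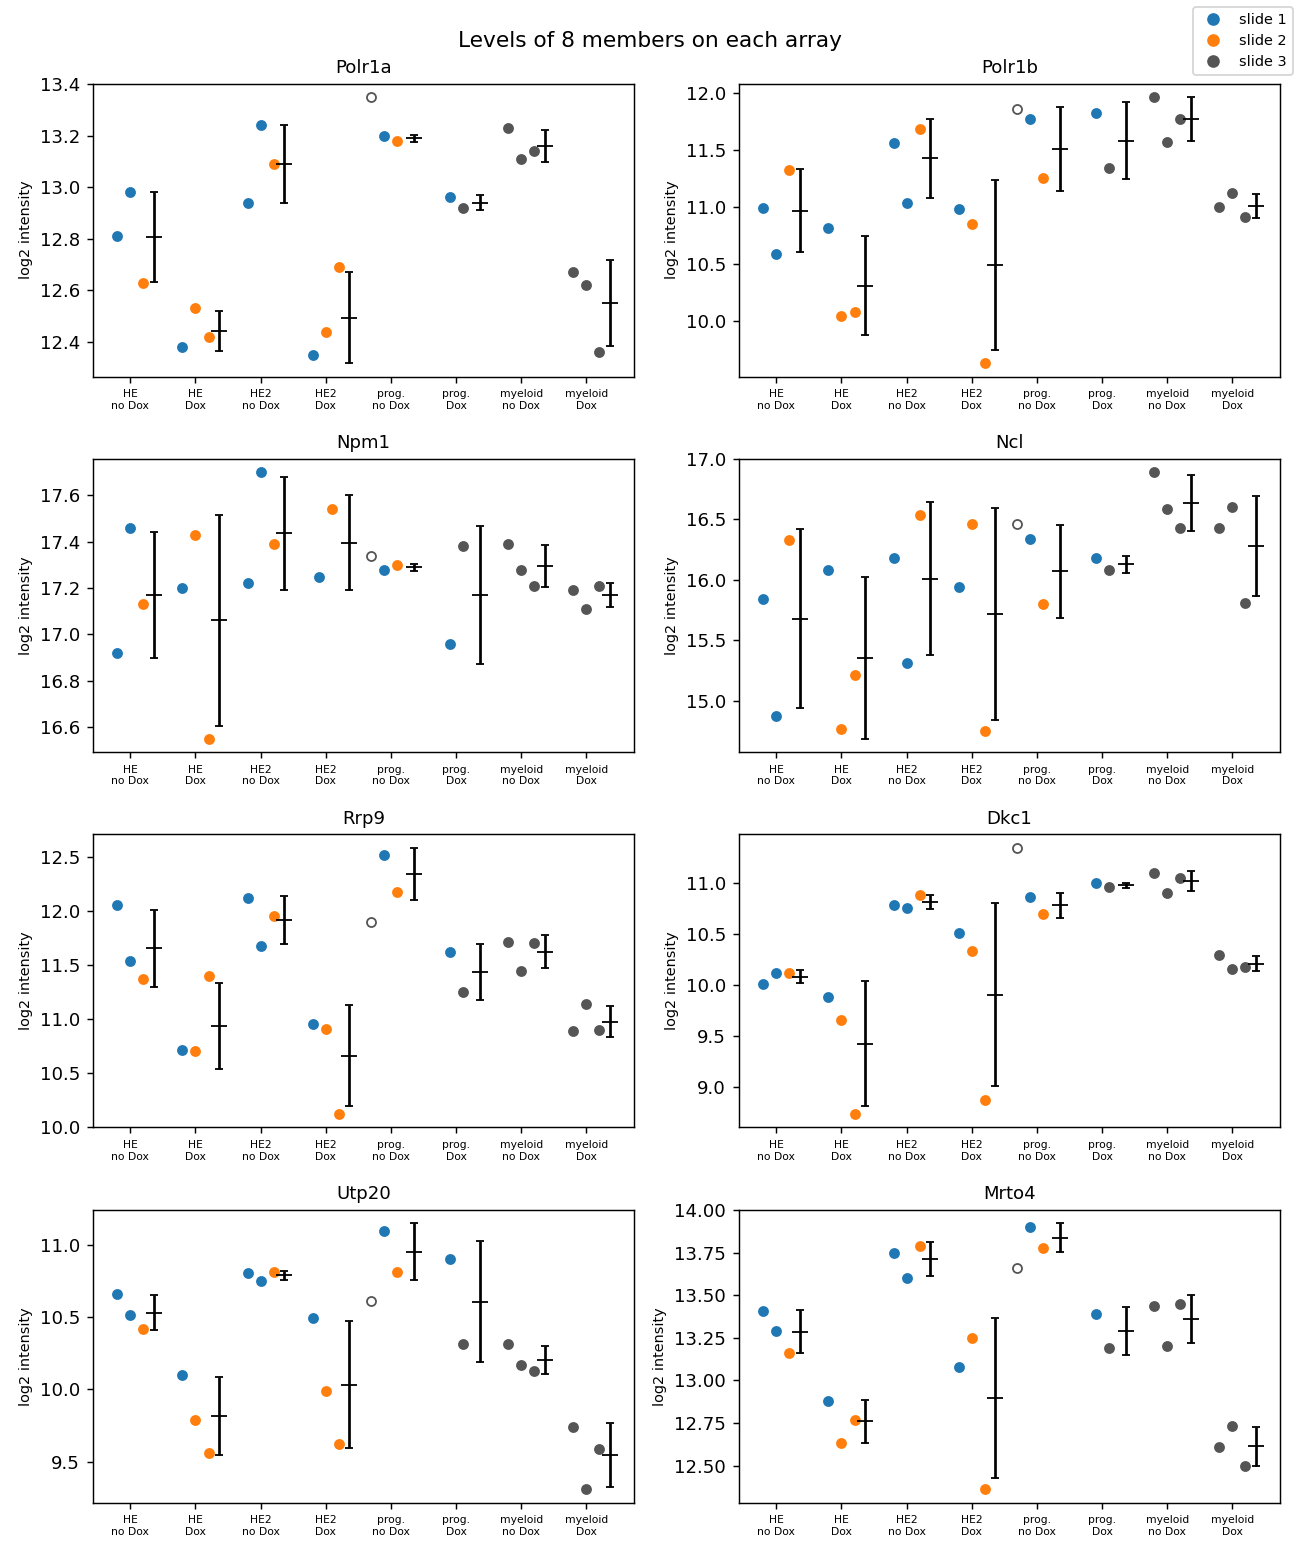
Log2 intensity (vertical axis) of Polr1a, Polr1b, Npm1, Ncl, Rrp9, Dkc1, Utp20 and Mrto4 on each array by group, coloured by slide, with the mean and SD as bars that leave out the additional uninduced progenitor array (open point). Induced points of Rrp9, Utp20 and Mrto4 lie below the uninduced ones in HE2, while those of Npm1 and Ncl mix.

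Processing of the small subunit was represented by 9 genes with medians of -0.38, -0.36, -0.14 and -0.50. Of these 1 fell in HE, 2 in HE2, none in progenitors and 2 at the myeloid progenitor stage. Utp20, a very large scaffold of the early small subunit particle whose window holds an E-box, was the only member that fell in all 3 of HE, HE2 and myeloid progenitors. It read 10.66, 10.51 and 10.42 in uninduced and 10.10, 9.79 and 9.56 in induced HE, 10.80, 10.75 and 10.81 against 10.49, 9.99 and 9.62 in HE2, and 10.31, 10.17 and 10.13 against 9.74, 9.31 and 9.59 in myeloid progenitors. The groups did not overlap in any of these stages. Utp20 fell by 0.72 in HE (SE 0.210, adjusted P = 0.0257), by 0.75 in HE2 (adjusted P = 0.0187) and by 0.66 in myeloid progenitors (adjusted P = 0.0452). Without the 4 arrays that stood apart, the calls in HE (change of -0.71, adjusted P = 0.0799) and HE2 (change of -0.56, adjusted P = 0.188) were lost. The call in HE was also lost without any 1 of uninduced replicates 1 and 2 and induced replicates 2 and 3 (adjusted P = 0.0584 to 0.115).

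Tsr1, which acts late in small subunit maturation in the cytoplasm, read 12.32, 12.09 and 12.07 in uninduced and 11.59, 11.42 and 11.45 in induced myeloid progenitors. It fell by 0.67 there (SE 0.182, adjusted P = 0.0172), a call that was lost without uninduced replicate 1 or induced replicate 2 or 3 (adjusted P = 0.0863, 0.0626 and 0.057). In HE and HE2 its arrays overlapped. Bysl, which works on the same late particles, fell by 0.77 in HE2 (adjusted P = 0.0226). Rrp12, an export factor, had the lowest value of the list in HE, -1.19, with an SE of 0.574. Its induced HE arrays read 8.46, 6.34 and 7.52 against 8.98, 7.54 and 9.38, which overlap (adjusted P = 0.194). Imp3, a protein of the U3 particle, was the member that was higher with Dox in both HE (0.45) and HE2 (0.33), and it did not pass the test in either.

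Processing of the large subunit was represented by 9 genes, with medians of -0.49 in HE, -0.76 in HE2, -0.55 in progenitors and -0.58 at the myeloid progenitor stage. In HE2, 5 of the 9 fell, against none in HE, none in progenitors and 1 at the myeloid progenitor stage. Bop1, Pes1 and Wdr12 form a complex that the large subunit needs for one of its cleavages. Bop1 read 13.94, 14.13 and 13.79 in uninduced and 13.30, 13.02 and 12.84 in induced HE2. It fell by 0.90 (SE 0.252, adjusted P = 0.0192), 1.86-fold, but without the 4 arrays that stood apart the change was -0.70 (adjusted P = 0.21), and without uninduced replicate 2 or induced replicate 3 the adjusted P was 0.0712 or 0.0827. In progenitors Bop1 read 14.41 and 14.38 without and 13.87 and 13.00 with Dox (change of -0.96, adjusted P = 0.0823), the lowest value of the list in that stage.

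The partners of Bop1 did not pass the test. Pes1, whose promoter window holds both an E-box and a RUNX motif, averaged 12.04 ± 0.195 (SD, n = 3) in uninduced and 11.67 ± 0.0503 (n = 3) in induced HE2, a change of -0.37 (adjusted P = 0.128). Wdr12 was lower by -0.63 in HE2 (adjusted P = 0.104) and by -0.65 in myeloid progenitors (adjusted P = 0.107), without overlap in either. Mrto4, which resembles a protein of the ribosomal stalk and holds its place on the immature particle, separated in every stage. In HE2 it read 13.75, 13.60 and 13.79 without and 13.08, 13.25 and 12.36 with Dox, and in myeloid progenitors 13.44, 13.20 and 13.45 against 12.61, 12.73 and 12.50. Mrto4 fell by 0.81 in HE2 (SE 0.185, adjusted P = 0.00483) and by 0.75 in myeloid progenitors (SE 0.185, adjusted P = 0.0100), and the myeloid call held in all 20 other settings.

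Of the other large subunit factors, Nle1 (-0.89, adjusted P = 0.0226), Nop2 (-0.76, adjusted P = 0.0324) and Ppan (-0.64, adjusted P = 0.0422) fell in HE2. Nop16 was lower by -1.0 in HE and -1.02 in HE2, with SDs of 0.827 to 1.41 in these groups and no call. Rrp1b was lower by -1.04 in myeloid progenitors, where the groups did not overlap (9.58 to 10.31 against 8.84 to 9.10) and the change did not pass the test. Both were among the genes that differed most on the 4 arrays standing apart. On those arrays, Nop14, Nop16, Rrp12, Rrp1b and Ncl read at least 2-fold below the other arrays of their groups (by -2.02, -1.81, -1.44, -1.29 and -1.15), where 5.43% of all genes did. Without them, 36 of the 38 genes were still lower in HE and 36 in HE2, with medians of -0.45 and -0.40, and 1 member (Nop16, -1.21, adjusted P = 0.0384) fell in HE (5.65% of all genes) and 3 (Rrp9, Polr1a and Mrto4) in HE2 (3.79%).

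Most members were also lower within single slides. In HE the median change was -0.31 on slide 1 (27 of 38 lower) and -0.31 on slide 2 (30 lower), and in HE2 it was -0.35 (32 lower) and -0.50 (36 lower). In progenitors it was -0.26 on slide 1 (30 lower), and on slide 3, where the additional uninduced array stood in for the uninduced cells, -0.34 (36 lower). All myeloid progenitor arrays shared slide 3. Where a member had further probes, most of these also read lower: of 12 such probes of 10 genes, 12 were lower upon induction in HE, 11 in HE2, 8 in progenitors and 12 at the myeloid progenitor stage. The 4 that were higher in progenitors were those of Nop56 (0.80), Npm1 (0.40 and 0.38) and Nolc1 (0.27). There the probes used for these genes read -0.25, -0.11 and -0.34.

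**Figure D4:**
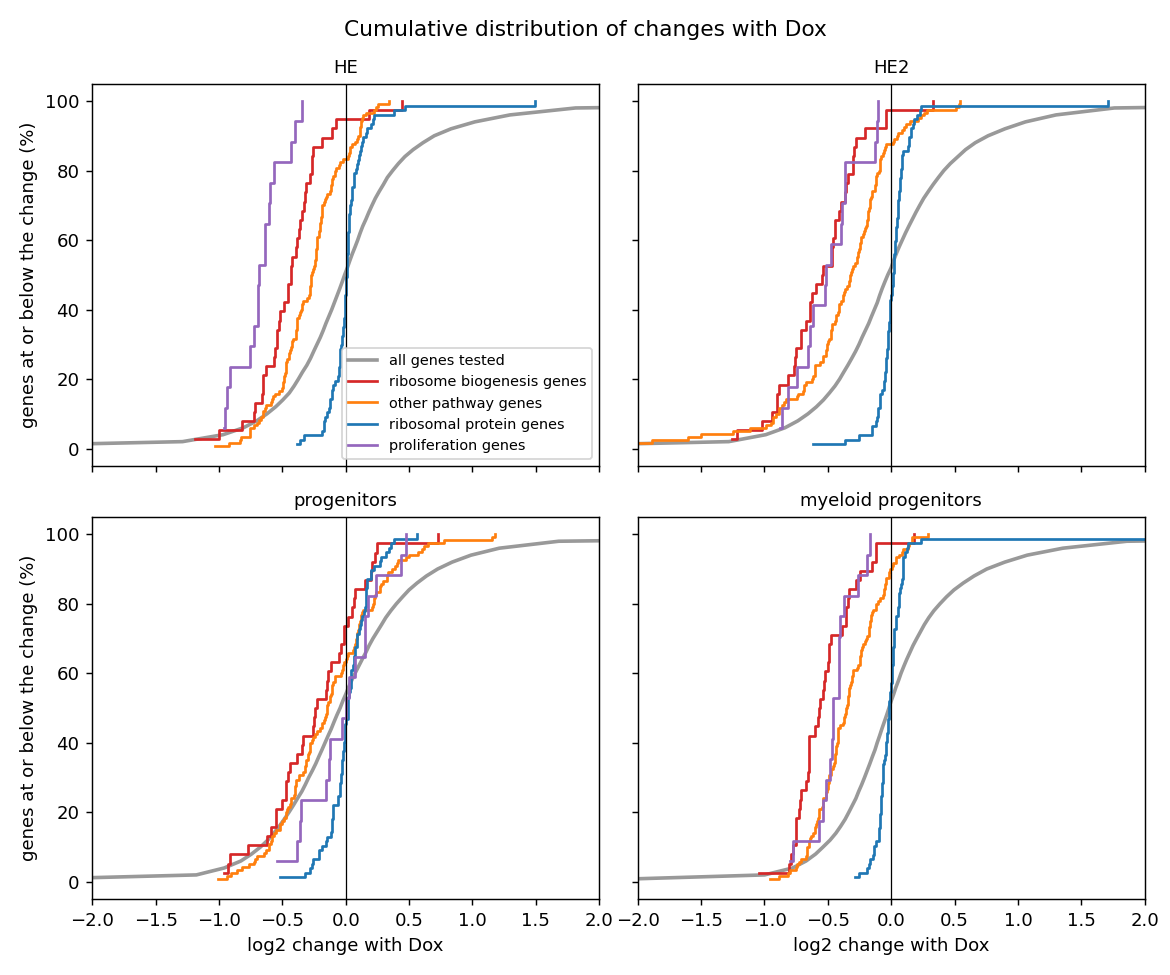
Cumulative share of genes (vertical axis) by log2 change with Dox (horizontal axis) in the 4 stages for the 38 genes, the other ribosome biogenesis genes, the ribosomal protein genes, the proliferation genes and all genes tested. The curve of the 38 genes is shifted to lower values, with medians of -0.43, -0.54, -0.23 and -0.57, and that of the ribosomal protein genes runs along 0.

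The size of the response was compared between stages with interaction terms. The median over the 38 genes of the response in HE2 minus that in HE was -0.05, in progenitors minus HE2 0.26, in myeloid progenitors minus progenitors -0.23 and in myeloid progenitors minus HE -0.10. No member passed limma's adjusted P of 0.05 in any of the 4 differences (0.368, 0.0460, 0.664 and 4.13% of all genes did upwards and 0.520, 0.0987, 0.605 and 2.74% downwards), and the smallest adjusted P was 0.811, 0.598, 0.415 and 0.269. At an unadjusted P of 0.05, the members past it in limma were Dkc1, upwards, in progenitors against HE2 (3.09% of all genes) and Imp3, downwards, in myeloid progenitors against HE (7.20%). A weaker response of these genes in progenitors than in the other stages was therefore not shown gene by gene, in a stage with 2 arrays per group.

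Without Dox, the genes were higher in HE2 than in HE. All 38 were higher (53.2% of all genes were), with a median change of 0.31, against 0.03 over all genes. Wdr12 read 10.23, 10.81 and 10.22 in HE and 11.19, 11.58 and 11.29 in HE2. The groups did not overlap, and Wdr12 rose by 0.94 (SE 0.254, adjusted P = 0.0228), the 1 member that did (4.76% of all genes rose). For 11 members the arrays separated upwards (13.4% of all genes). With the replicate number as a block, the median was again 0.31, the count of members that rose was 2, and the adjusted P of Wdr12 was 0.00696. The share of all genes that rose in the fit with that block is not given. Without the block, the call of Wdr12 was lost without replicate 1 or 3 of HE or replicate 2 or 3 of HE2 (adjusted P = 0.0664 to 0.0941). With Dox the same step gave 33 higher genes (51.6% of all genes), a median of 0.22 and no call (3.10% of all genes rose, and 3 members were higher at an unadjusted P under 0.05, where 10.1% of all genes were).

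From HE2 to progenitors without Dox, 23 members were higher (48.1% of all genes) and 15 lower, the median was 0.05, and none passed limma's adjusted P of 0.05 (2.78% of all genes rose and 5.39% fell) or an unadjusted P of 0.05 (7.71% of all genes higher and 10.5% lower). With Dox, 32 were higher (46.2% of all genes) with a median of 0.38, and Polr1b rose by 1.09 (adjusted P = 0.0453, with 4.38% of all genes rising), a call that was lost without the low replicate 3 of induced HE2 and without induced progenitor replicate 2. The induced cells read further below the uninduced ones in HE2 (median -0.54) than in progenitors (median -0.23), and the 2 steps share the HE2 and progenitor arrays of the Dox comparisons.

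From progenitors to myeloid progenitors without Dox, 18 members were higher and 20 lower (56.6% of all genes), with a median of 0.00 against -0.12 over all genes. Nle1, which acts in release of factors from the large subunit, read 11.93 and 11.69 in progenitors and 10.98, 10.48 and 10.96 in myeloid progenitors, and it fell by 1.0 (adjusted P = 0.0121). Bop1 went from 14.41 and 14.38 to 13.59, 13.20 and 13.41, and fell by 1.0 (adjusted P = 0.0115). Utp20 went from 11.09 and 10.81 to 10.31, 10.17 and 10.13, and fell by 0.75 (adjusted P = 0.0209). None of these groups overlapped. With Gar1 these were the 4 members that fell (19.2% of all genes), and Ubtf was the 1 that rose and was called (7.00% of all genes by that rule). The stages lay on different slides. Without replicate 1 of the uninduced progenitors none of the 4 passed the test, and without replicate 2 of them 2 did. With the slide as a block, none of the 4 falls passed the test, and the change was -0.72 for Nle1 (adjusted P = 0.641), -0.23 for Bop1 and -0.32 for Utp20.

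Ubtf read 15.64 and 15.53 in uninduced progenitors on slides 1 and 2 and 16.64, 17.13 and 16.97 in uninduced myeloid progenitors on slide 3, a rise of 1.33 (SE 0.321, adjusted P = 0.00419). The additional uninduced progenitor array on slide 3 read 16.80, as high as the myeloid progenitors. Of the 2 induced progenitor arrays, the one on slide 1 read 15.03 and the one on slide 3 read 16.55. On this probe every array of slide 3 lay above every array of slides 1 and 2. Within slide 3 the step was 0.11 without Dox, and with the slide as a block it was -0.09. The dimmer Ubtf probe gave -0.09 for the step. On that probe the HE arrays went from 10.74, 10.73 and 10.41 without Dox to 9.63, 9.75 and 10.70 with Dox, and the myeloid progenitor arrays from 11.19, 11.12 and 11.36 to 10.59, 10.90 and 10.32.

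**Figure D5:**
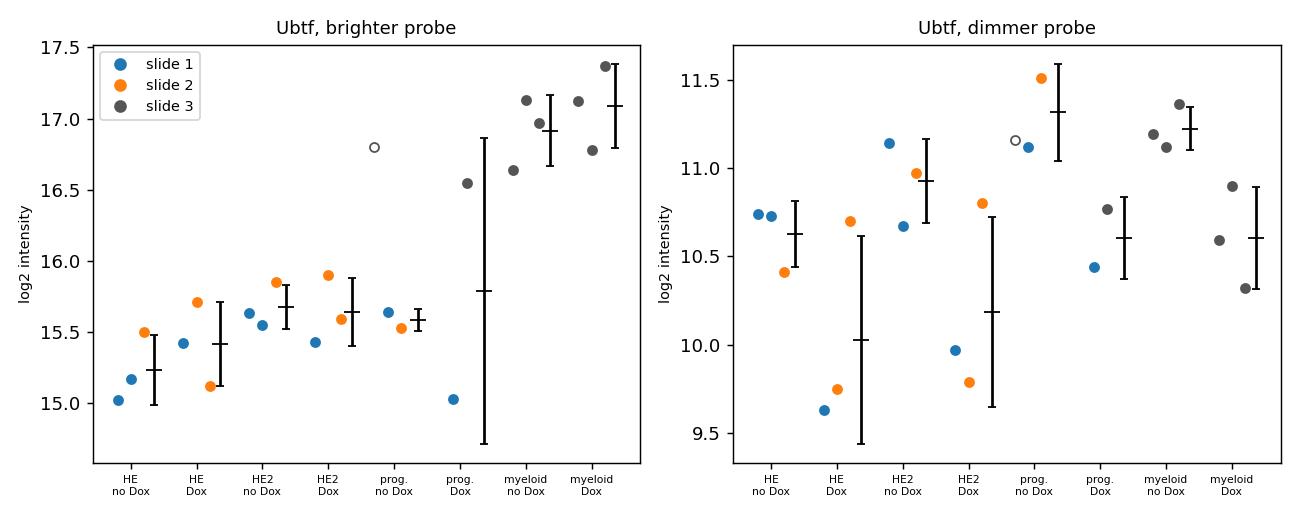
Log2 intensity (vertical axis) of the 2 probes for Ubtf on each array by group, coloured by slide, with bars for the mean and SD of each group without the additional uninduced progenitor array (open point). The brighter probe reads 16.55 or more on every slide 3 array and 15.90 or less on the others, and the dimmer probe does not follow the slide.

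With Dox, the step from progenitors to myeloid progenitors had 32 lower members with a median of -0.40 (54.9% of all genes lower, median -0.07). Utp20 fell by 1.06 and was called (2.51% of all genes were called lower), and Ubtf, with the slide pattern just given, rose by 1.30 (4.86% called higher). Gar1 (-0.80), Nolc1 (-0.88) and Mrto4 (-0.68) fell at an adjusted P of at most 0.05 (8.86% of all genes). Without induced progenitor replicate 1 none of these falls and not the rise of Ubtf passed the test. Within slide 3, with 1 induced progenitor array, 35 members were lower and the median was -0.27.

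Among 126 other ribosome biogenesis genes, 120 were tested, and they ran the same way with smaller medians. With Dox, 100 were lower in HE, 105 in HE2, 76 in progenitors and 108 at the myeloid progenitor stage (83.3, 87.5, 63.3 and 90%). Of all genes, 50.6, 52.1, 53.9 and 52.1% were lower. The medians of the 120 genes were -0.27, -0.32, -0.15 and -0.35. None was called at the 2-fold rule in a comparison with Dox, where 2.39, 2.05, 0.704 and 1.18% of all genes were called lower. At an adjusted P of at most 0.05, 10 fell in HE (8.33%, against 6.62% of all genes) and 13 in HE2 (10.8 against 6.76%). None fell in progenitors (1.48% of all genes), and 11 did at the myeloid progenitor stage (9.17 against 4.30%). None rose, where 9.03, 10.4, 4.05 and 9.49% of all genes did. In the step from uninduced progenitors to myeloid progenitors, Exosc9, a subunit of the RNA exosome (1.76), and Utp6, of the small subunit particle (1.02), were called higher, and the 2 largest falls called were those of the RNA helicase Dhx37 (-1.27) and of Tex10 (-1.09), on the same unlike slides.

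Genes of the ribosomal proteins themselves had medians close to 0. Of 81 listed, 77 were tested, and their medians with Dox were 0.01, 0.01, 0.02 and -0.02 in the 4 stages. Of the 77, 34, 34, 35 and 43 were lower (44.2, 44.2, 45.5 and 55.8%, against 50.6, 52.1, 53.9 and 52.1% of all genes). The one called with Dox was Rpl3l, a muscle form of a large subunit protein, higher by 1.49 in HE, 1.71 in HE2 and 2.36 in myeloid progenitors. Its uninduced means in these stages were 5.7, 5.86 and 6.03, below the filter value of 6.5. Its induced means there were 7.19, 7.57 and 8.39, so these rises start from levels near the floor. As a list, ribosomal protein probes sat near the top of the intensity scale, with a median level of 17.67 and a lowest of 6.67. Among the 38 genes, the 6 with a mean level of 15 or more had medians of -0.43, -0.35, -0.13 and -0.36 in the 4 stages, and the 32 below it -0.43, -0.61, -0.25 and -0.62. The brightest of the 6, Npm1 (17.24), had changes of -0.12 to -0.04, and the 6 include the Ubtf probe that followed the slide. The part of probe intensity in these differences was not tested.

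Genes of cell division were lower in the same stages. Of 17 proliferation genes tested, such as Mki67 and the Mcm genes, 17 were lower upon induction in HE, 17 in HE2, 8 in progenitors and 17 at the myeloid progenitor stage, with medians of -0.68, -0.52, 0.01 and -0.46, and 12, 7, 0 and 2 fell at an adjusted P of at most 0.05. The mean level of this list on single arrays was 13.76 to 13.98 without and 12.93 to 13.52 with Dox in HE, 14.08 to 14.30 against 13.53 to 13.89 in HE2, and 14.23 to 14.26 against 13.68 to 13.87 in myeloid progenitors. In progenitors the ranges of 14.14 to 14.24 and 14.04 to 14.30 overlapped. The part of proliferation in the result on ribosome biogenesis was not tested.

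Among 11 tested regulators of the pathway, Mxd1, the antagonist of MYC, was the one that passed the test with Dox in 4 of 4 stages. It read 9.46, 9.87 and 9.88 in uninduced and 11.12, 11.18 and 10.67 in induced HE, and 10.39 and 9.97 against 11.37 and 11.43 in progenitors. No groups overlapped. Mxd1 rose by 1.25 in HE (adjusted P = 0.000111), 1.34 in HE2 (7.34e-05), 1.22 in progenitors (0.00271) and 1.04 at the myeloid progenitor stage (0.000701), 2.06-fold to 2.53-fold. Myc averaged 11.90 ± 0.135 (SD, n = 3) in uninduced and 11.89 ± 0.19 (n = 3) in induced HE, and its change was -0.01 in HE, -0.41 in HE2, -0.72 in progenitors and -0.28 at the myeloid progenitor stage (adjusted P = 0.983, 0.181, 0.0979 and 0.431). In progenitors Myc read 12.30 and 12.54 without Dox on slides 1 and 2, and 12.02 and 11.38 with Dox on slides 1 and 3. The additional uninduced array on slide 3 read 11.55. Mycn had changes of -0.58, -0.51, -0.54 and -0.07, also without passing the test. In uninduced HE Mycn read 13.02 and 13.35 on slide 1 and 12.26 on slide 2, and in induced HE 12.76 on slide 1 and 12.35 and 11.76 on slide 2. The part of the slide in the changes of Myc and Mycn was not tested. Tsc1, a brake on growth signalling through mTOR, fell by 0.90 in HE2 (adjusted P = 0.00312).

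The 9 members with an E-box in the promoter windows printed above had median changes of -0.32 in HE, -0.37 in HE2, -0.44 in progenitors and -0.49 at the myeloid progenitor stage, and the 25 without one had -0.43, -0.55, -0.23 and -0.65. The members with an E-box had the lower median in progenitors and the higher one in the other stages, which was not tested. The 3 members with a RUNX motif had medians of -0.38, -0.54, -0.25 and -0.47, and the 31 without one had -0.43, -0.55, -0.24 and -0.58, which was not tested either.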

How the data were processed

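RNA from 23 samples was hybridised to Agilent one-colour mouse arrays (62976 spots each). The authors deposited the scanner output as intensities from Agilent Feature Extraction (10.7.1.1 per the labels, 10.7.3.1 per the file headers), and a processed matrix of log2 intensities that they had normalised with limma, used here as an alternative. The median signal and background of each spot were corrected with normexp (offset of 16) on all spots, 3671 control spots and outlier spots were removed, and the arrays were quantile normalised (R 4.3.3, limma 3.58.1, the package data.table at 1.17.8). Spots of a probe were averaged, the probe with the highest mean stood for a gene, and genes reaching a log2 value of 6.5 on at least 1 array were kept. The offset, the filter and the 2-fold rule at P of at most 0.001 were set after the study's methods. A linear model with 8 groups was fitted to 22 arrays (14 residual degrees of freedom) with empirical Bayes moderation, and P values were adjusted over 15202 genes by Benjamini-Hochberg.

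The 38 genes, the other gene lists, their roles and the tests were chosen with earlier results of these data known. Members named with values were, in each comparison, up to 3 of the largest rises and falls among those called or with an adjusted P of at most 0.05, with group means for Polr1a, Polr1b, Ncl, Npm1, Fbl, Nop56, Dkc1, Bop1, Pes1 and Wdr12. Of the other ribosome biogenesis genes, up to 2 called rises and falls were named. Further members were added after their values were seen, to fill the account of each role.

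Replicate numbers paired HE with HE2 without Dox: deviations from the group means of same-numbered samples correlated at 0.394, 0.795 and 0.608 across genes. In the deposited matrix, the columns of replicates 2 and 3 matched each other's scanner output in induced HE, HE2 and myeloid progenitors, which leaves the groups unaffected but makes the pairing of induced samples uncertain. The number of arrays limits the precision. Data were simulated for Dox in HE, with 200 of 15202 genes given a log2 difference of 1.5. Of these 200, 84% were called at the 2-fold rule. The ribosome biogenesis genes changed by -1.19 to 0.45 in HE, with a median of -0.43. All these changes are smaller than the simulated one, so the simulation does not show how often changes of their size would be called. Alternatives in background correction, scaling, filter, probe choice, blocks and left-out arrays are described in the closing section. Promoter windows were those of RefSeq (GRCm38.p6).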

Additional observations from a re-analysis of the deposited data

How the results depend on the processing

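Under up to 21 alternative settings, the median change of the 38 genes with Dox kept its direction in all 4 stages, from -0.52 to -0.30 in HE, -0.69 to -0.37 in HE2, -0.48 to -0.15 in progenitors and -0.65 to -0.49 in myeloid progenitors. Scaling to the 75th percentile moved the medians to -0.69 for Dox in HE2, -0.48 in progenitors, -0.31 and -0.54 for progenitors to myeloid progenitors without and with Dox, 0.23 for HE2 to progenitors with Dox and -0.05 for the response of myeloid progenitors minus progenitors, and under it the median of all genes was itself -0.19, -0.25 and -0.19 for Dox in progenitors and the step to myeloid progenitors without and with Dox. Leaving out the 4 arrays that stood apart, chosen after seeing the data, gave -0.40 for Dox in HE2 and 0.38 for HE to HE2 with Dox. Leaving out 1 array at a time gave -0.63 to -0.37 for Dox in HE2 (-0.37 without the third induced array), 0.10 to 0.37 for HE to HE2 with Dox (0.37 without the same array) and -0.20 to 0.08 for the response of HE2 minus HE. The rise of Ubtf from progenitors to myeloid progenitors without Dox reversed to -0.09 with the slide as a block, -0.18 with the scan day as a block and -0.09 on its other probe, a slide and scan day that separated the stages. Counts of members that fell moved more. The 4 in HE became 0 in a fit of the 2 groups alone and 1 with the slide as a block, and ran from 0 to 8 with 1 array left out. The 11 in HE2 became 3 with the 2 groups alone and 3 without the 4 arrays apart, and ran down to 5 with 1 array left out. The 6 in myeloid progenitors became 27 with the 2 groups alone and 2 under the 75th percentile, and ran down to 2 with 1 array left out. In progenitors the 0 became 2 under the 75th percentile. The 4 falls from progenitors to myeloid progenitors without Dox became 11 under the 75th percentile, 12 with the 2 groups alone and 0 with the slide or scan day as a block. The cause of these shifts was not tested. Except for the fit without the 4 arrays apart, the share of all genes that passed under each setting is not given. The counts in this section therefore show how calls depend on the fit and do not set the members against other genes. With the replicate block, the Dox medians were -0.43, -0.54, -0.23 and -0.57, 14 members fell in HE2 and 10 in myeloid progenitors. Same-numbered samples with and without Dox did not all deviate together (correlations of -0.0552, 0.694 and -0.0954 in HE, 0.361, -0.535 and -0.447 in HE2, 0.23 and 0.23 in progenitors and 0.212, -0.13 and -0.00815 in myeloid progenitors). With replicates 2 and 3 of the induced HE, HE2 and myeloid progenitor groups exchanged, as in the deposited matrix and chosen after seeing the data, the correlations were 0.361, 0.606 and 0.486 in HE2 and 0.212, 0.128 and 0.263 in myeloid progenitors but -0.0552, -0.204 and -0.36 in HE, and the replicate block then gave 3, 13, 0 and 7 members that fell in the 4 stages with the same medians. Which numbers pair is not settled.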
